A study of Mus musculus with 6 samples.

Results

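The genes of the mitochondrial ribosomal proteins were followed through 6 RNA sequencing libraries of mouse ear epidermis. They were taken from the deposited table as every gene symbol that starts with Mrpl (large subunit) or Mrps (small subunit) and a digit, and TPM (a transcript level scaled to transcript length and to a fixed library total) was summed over the transcripts of a symbol. This gave 78 of the 20522 symbols, 49 of the large and 29 of the small subunit. ETA sheets (3 libraries) held the upper layers of the epidermis, with the granular cells called SG1 and SG2, and were freed with the bacterial enzyme exfoliative toxin A, which cuts the desmosomal cadherin desmoglein 1. Epidermal sheets (3 libraries) held the whole epidermis, lifted off with dispase. All 6 came from the ears of female C57BL6/N mice of 8 weeks, and the labels name no genotype or drug that sets the groups apart. The freeing agent and the layer go together in this design, so their parts cannot be told apart. No label says which libraries came from separate mice, so p-values measure the spread between these libraries, which may be technical.

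The mitochondrial ribosome makes the few membrane proteins of the respiratory chain that are encoded in mitochondrial DNA. Its RNAs come from that DNA, whereas all of its proteins are encoded in the nucleus, made on cytosolic ribosomes and imported. Many of the proteins descend from bacterial ribosomal proteins and others are found only in mitochondria. As keratinocytes reach the granular layer they fill with barrier proteins and later lose their nuclei and mitochondria.

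Each library summed to 1000000 TPM, so its depth is unknown. The sheet names in the table's column headers put 2 libraries, ETA sheet replicate 1 and epidermal sheet replicate 3, in the other group than the sample titles do; the titles were followed. By title the basal keratin Krt5 had 53.4, 59.7 and 32.7 TPM in the ETA sheets, against 6356, 5953 and 6221 TPM in the epidermal sheets. Grouped by header names instead, the limma fit called 0 of 11683 genes (87 at an unadjusted p under 0.05, 0 of them mitoribosomal). ETA sheet replicate 2 held more genes at or near 0 than the other libraries. Under 0.01 TPM stood 430, 1573 and 375 of the tested genes in the ETA sheets and 362, 560 and 525 in the epidermal sheets; among the mitoribosomal symbols the counts were 2, 8 and 2 in the ETA sheets and 2, 3 and 2 in the epidermal sheets.

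The promoters of these genes are often described by motifs of the ETS family (GABPA), NRF1 and YY1, transcription factors known for nuclear genes of mitochondria. In RefSeq promoters (build GRCm38.p6, 250 bases before to 50 after a start) 69 of the 78 symbols had an entry. CCGGAAG, an ETS-type string, stood in 26 of the 69 (37.7%) on either strand, against 20.1% of the tested genes and 9.93% of all genes in the promoter table. AAGATGGC, the YY1-type string, stood in 12 (17.4%), against 5.24% and 3.19%. GCATGCGC, the NRF1-type string, stood in 8 (11.6%), against 6.02% and 3.05%. The E-box CACGTG stood in 5 (7.25%), against 11.8% and 8.09%. At least 1 of the 4 strings was found in 58.0% of the mitoribosomal promoters and in 36.7% of those of tested genes. The strings do not contain one another, and a match is a description of letters only. The windows below run from 120 bases before to 30 bases after the start, on the plus strand in GRCm38.p6, with matches in capitals. Mrpl33 (chr5:31613831-31613980) and Mrpl22 (chr11:58171544-58171693) are shown because they hold ETS-type and NRF1-type strings together, and Mrps18a (chr17:46110884-46111033) because it holds ETS-type and YY1-type strings; all 3 genes were lower in ETA sheets. Mrpl34 (chr8:71464806-71464955) and Mrps7 (chr11:115604020-115604169) hold a string and were not called, Mrpl14 (chr17:45686229-45686378) was called higher, and Mrpl12 (chr11:120484517-120484666) was among the most strongly lowered. Neither Mrpl14 nor Mrpl12 holds any of the 4 strings in its window.
Mrpl33: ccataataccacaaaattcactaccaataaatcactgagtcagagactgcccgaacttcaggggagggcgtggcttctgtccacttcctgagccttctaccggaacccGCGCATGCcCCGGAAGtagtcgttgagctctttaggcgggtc
Mrpl22: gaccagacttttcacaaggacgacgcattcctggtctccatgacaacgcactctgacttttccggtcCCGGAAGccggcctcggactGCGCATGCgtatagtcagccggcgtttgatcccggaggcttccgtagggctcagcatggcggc
Mrps18a: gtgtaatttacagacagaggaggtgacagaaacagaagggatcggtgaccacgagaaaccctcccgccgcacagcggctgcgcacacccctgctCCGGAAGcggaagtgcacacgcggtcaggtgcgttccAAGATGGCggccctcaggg
Mrpl34: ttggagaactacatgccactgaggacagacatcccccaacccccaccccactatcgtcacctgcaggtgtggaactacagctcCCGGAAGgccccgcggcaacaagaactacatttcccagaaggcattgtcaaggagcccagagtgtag
Mrps7: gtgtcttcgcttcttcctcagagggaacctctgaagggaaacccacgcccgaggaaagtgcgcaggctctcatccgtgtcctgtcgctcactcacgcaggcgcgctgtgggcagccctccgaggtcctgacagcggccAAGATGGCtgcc
Mrpl14: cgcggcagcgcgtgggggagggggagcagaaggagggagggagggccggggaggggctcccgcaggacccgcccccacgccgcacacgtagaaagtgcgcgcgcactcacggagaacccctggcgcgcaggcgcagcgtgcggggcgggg
Mrpl12: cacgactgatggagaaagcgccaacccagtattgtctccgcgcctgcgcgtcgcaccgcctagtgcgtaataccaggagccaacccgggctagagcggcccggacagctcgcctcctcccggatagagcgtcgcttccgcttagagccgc

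Median folds with and without each string were compared. The median log2 fold change (ETA minus epidermal sheets, of log2(TPM + 1)) was -1.996 over the 25 tested mitoribosomal genes with the ETS-type string and -2.17 over the 43 without it. It was -2.29 over the 12 with the YY1-type string and -2.11 over the 56 without, and -1.85 over the 8 with the NRF1-type string and -2.15 over the 60 without. For the E-box it was -2.26 over 5 with it and -2.12 over 63 without. These are descriptions, with no test.

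The comparison of ETA with epidermal sheets asks how transcript levels in the peeled upper layers differ from those of the whole epidermis. Mitoribosomal transcripts were lower in ETA sheets almost throughout, and 1 gene, Mrpl14, was higher. Their summed level was 1573, 1203 and 1321 TPM in the ETA sheets, against 4549, 4272 and 4388 TPM in the epidermal sheets, a 3.22-fold lower mean. Of the 77 symbols that averaged 1 TPM or more and so entered the limma fit over all genes, 73 were lower and 1 was higher at a Benjamini-Hochberg adjusted p under 0.05. That is 94.8% lower, where 63.6% of all tested genes were called lower and 10.1% higher. In 71 of the 77 every ETA sheet lay below every epidermal sheet, as in 66% of all tested genes, and in 1 every ETA sheet lay above, as in 10.9%. A mean at least 2-fold lower was found for 68 symbols, and at least 10-fold lower for 8. The shares of all tested genes at these folds were not counted. Their median log2 fold change was -1.34, itself more than a 2-fold fall, so the 68 are not a trait of these genes alone. In these bulk samples fewer cells of a type and less RNA per cell cannot be told apart.

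Most genes were lower in these values, which are shares of a fixed total, and 7 granular markers alone held 102972 to 116898 TPM in the ETA sheets, against 4994 to 7116 TPM in the epidermal sheets. Over all tested genes the log2 fold change had a median of -1.34, and over the mitoribosomal genes one of -2.12, which lies 0.78 log2 units lower. In the single ETA libraries, each set against the epidermal sheets, the mitoribosomal median lay 0.69, 0.76 and 0.67 log2 units below that of all genes for replicates 1, 2 and 3. Median centring, which moved the median of all genes to 0.16, called 25 mitoribosomal genes lower (32.5%, against 18.8% of all genes) and 8 higher (10.4%, against 29.1%). Trimmed-mean scaling, with a median of all genes of -0.13, called 25 lower and 5 higher, against 23.7% and 25.5% of all genes. Of all calls, 86.3% were lower as deposited, 39.3% after median centring and 48.2% after trimmed-mean scaling. The remaining 44 of the 77 after centring, or 47 after trimmed-mean scaling, were not called in either direction.

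**Figure D1:**
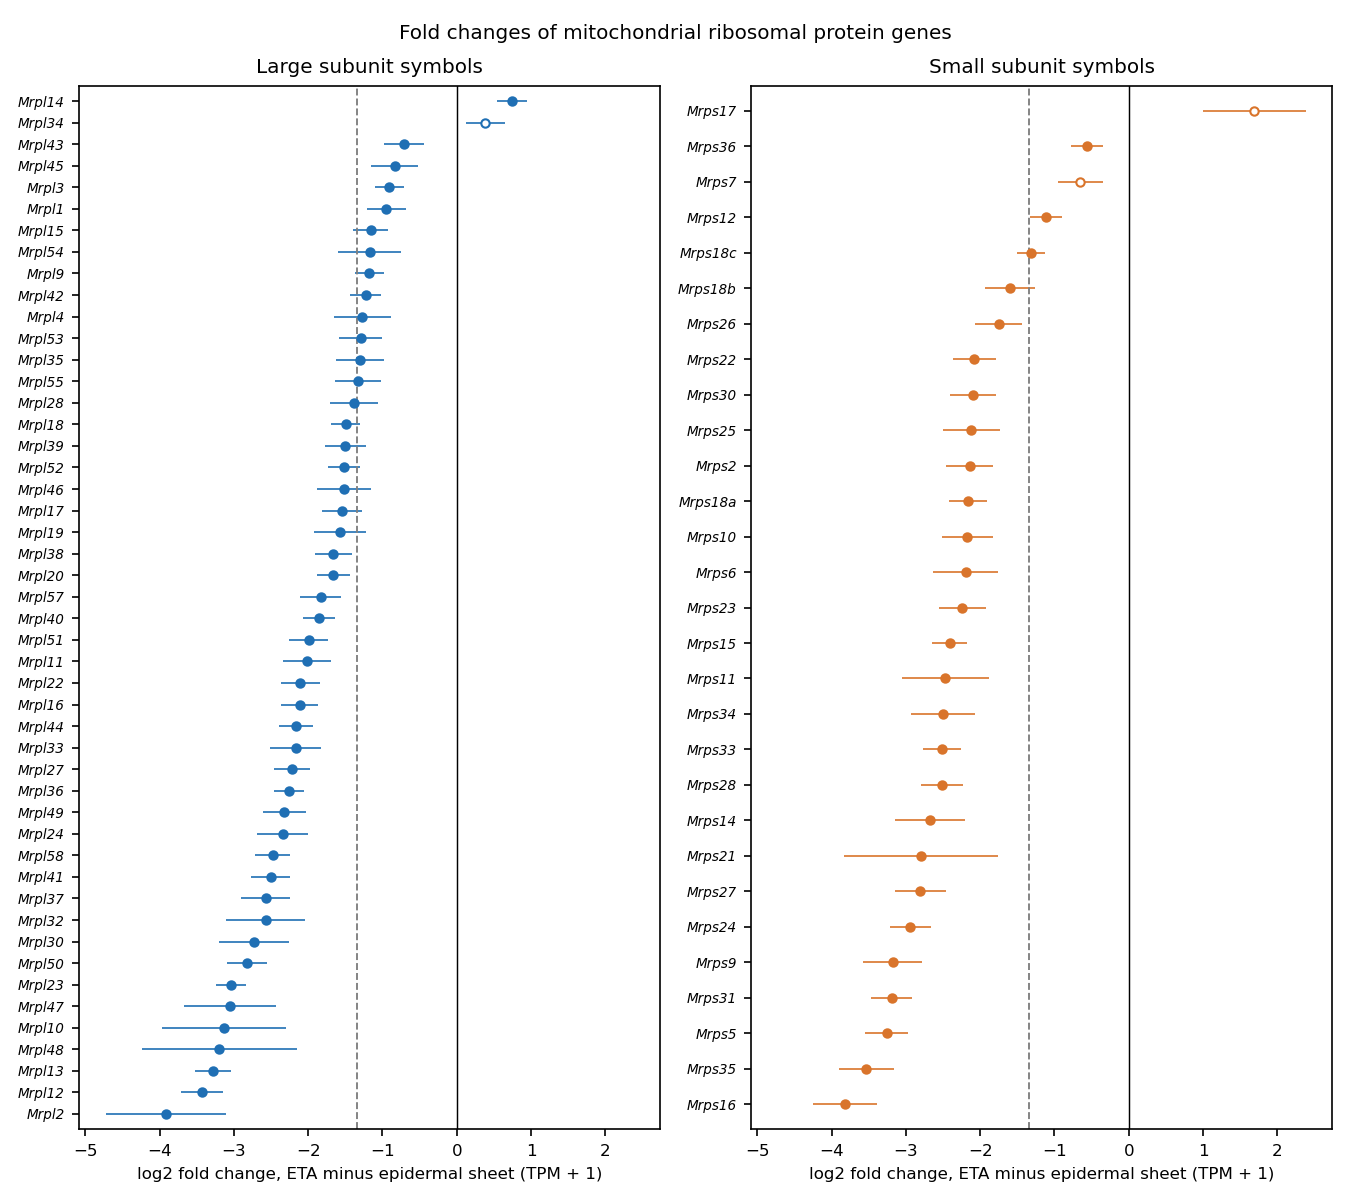
Log2 fold change (ETA minus epidermal sheets, log2(TPM + 1)) of each tested mitoribosomal gene, with SE bars, for the large (left) and small (right) subunit; filled points passed an adjusted p of 0.05, open points did not, and the dashed line marks the all-gene median, -1.34. Of the 77 points 73 are filled and left of 0, and Mrpl14 is the filled point right of 0.

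Mrpl14, a large subunit protein at the interface between the subunits, was the mitoribosomal gene that rose. It had 165, 235 and 195 TPM in the ETA sheets, against 107, 137 and 109 TPM in the epidermal sheets, so that the groups did not overlap. Its mean was 1.69-fold higher (0.74 ± 0.20 SE on the log2 scale, limma adjusted p = 0.00922). This call held with each library left out in turn (log2 0.61 to 0.87). Its value was larger after median centring (2.24) and trimmed-mean scaling (2.25) by construction, since both shifted every gene upward. A test against a 2-fold change did not pass (limma adjusted p = 1.0). Mrpl14 was the most abundant mitoribosomal transcript in all 3 ETA sheets, and ranked 10, 5 and 7 in the epidermal sheets. It held 10.5%, 19.6% and 14.8% of the summed mitoribosomal TPM in the ETA sheets, against 2.36%, 3.20% and 2.48% in the epidermal sheets. No exon of another annotated gene overlaps its exons in the GENCODE annotation.

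Mrpl34, a large subunit protein with a bacterial counterpart, was the only other tested large subunit symbol not called lower. It had 44.5, 52.2 and 40.9 TPM in the ETA sheets, against 40.2, 42.7 and 24.2 TPM in the epidermal sheets, and the groups overlapped (log2 fold change 0.39 ± 0.26 SE, limma adjusted p = 0.201). Median centring gave a higher call (1.88).

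The other abundant large subunit transcripts were lower. Mrpl52, a protein found only in mitochondrial ribosomes, had 92.5, 120 and 93.7 TPM in the ETA sheets and was the most abundant of all in epidermal sheets, at 377, 252 and 260 TPM (2.90-fold lower, log2 fold change -1.51 ± 0.22 SE, limma adjusted p = 0.000377). Mrpl33 had 96.3, 38.3 and 38.8 TPM in the ETA sheets, against 248, 247 and 224 TPM in the epidermal sheets (log2 -2.17). Mrpl23, a protein at the rim of the exit tunnel through which the new chain leaves, had 17.4, 17.5 and 23.6 TPM in the ETA sheets, against 182, 157 and 159 TPM in the epidermal sheets (8.51-fold lower, log2 -3.04 ± 0.20 SE, limma adjusted p = 1.39e-05). None of these 3 had overlapping groups. Of the 3, Mrpl23 alone was called lower after median centring (log2 -1.54), where Mrpl52 stood at -0.02 and Mrpl33 at -0.68.

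On the log2(TPM + 1) scale the lowest values of the large subunit were those of Mrpl2, Mrpl12, Mrpl13 and Mrpl48. Mrpl12 had 15.9, 8.73 and 7.69 TPM in the ETA sheets, against 129, 133 and 102 TPM in the epidermal sheets (11.2-fold lower, log2 fold change -3.43 ± 0.28 SE, limma adjusted p = 3.45e-05). Mrpl13 had 8.67, 11.2 and 6.79 TPM in the ETA sheets, against 79.6, 94.9 and 109 TPM in the epidermal sheets (10.6-fold lower, log2 -3.28). Both were also called lower after median centring, at -1.94 and -1.79. Mrpl2, which lies near the catalytic centre, was listed at 10.4, 0 and 8.10 TPM in the ETA sheets, against 76.4, 56.4 and 79.0 TPM in the epidermal sheets (log2 -3.91). Mrpl48 was listed at 24.1, 0 and 16.5 TPM in the ETA sheets, against 75.6, 60.2 and 70.9 TPM in the epidermal sheets (log2 -3.20 ± 1.04 SE, limma adjusted p = 0.0219). For both, the value of 0 in ETA sheet replicate 2 carried part of the fold. Without that library Mrpl2 stood at -2.80 and Mrpl48 at -1.73, both called; Mrpl48 was not called without epidermal sheet replicate 1 (-3.13) or 3 (-3.17). With names filled in by accession Mrpl48 had 24.1, 9.19 and 16.5 TPM in the ETA sheets, against 75.6, 77.2 and 70.9 TPM in the epidermal sheets (-2.20, called). By the ratio of its means as listed Mrpl48 was 5.10-fold lower, less than Mrpl50 (9.72-fold) or Mrpl47 (8.81-fold).

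Mrpl43 and Mrpl45 were near the threshold. Mrpl43 had 52.7, 35.2 and 43.4 TPM in the ETA sheets, against 79.7, 89.9 and 50.8 TPM in the epidermal sheets (log2 -0.71 ± 0.27 SE, limma adjusted p = 0.0375), and median centring turned it into a higher call (0.78). Its call was lost without ETA sheet replicate 2 (-0.57) or 3 (-0.72), or epidermal sheet replicate 1 (-0.64) or 2 (-0.55). Mrpl45, which ties the ribosome to the inner membrane, had 8.88, 10.1 and 7.42 TPM in the ETA sheets, against 21.7, 19.7 and 10.3 TPM in the epidermal sheets (log2 -0.84 ± 0.32 SE, limma adjusted p = 0.0398), and was not called without ETA sheet replicate 1 (-0.85) or 3 (-0.73), or epidermal sheet replicate 1 (-0.65) or 2 (-0.71). After median centring its sign turned (0.66, not called). Mrpl47, a further protein at the exit tunnel, was listed at 5.39, 0 and 2.37 TPM in the ETA sheets, against 19.2, 17.4 and 31.7 TPM in the epidermal sheets (log2 -3.05, called). It stood at -2.31 without ETA sheet replicate 2, still called, and was not called after median centring (-1.55). Mrpl21 was listed at 0 in all 6 libraries under its own name and was not tested. The other 34 large subunit symbols were all called lower, with log2 fold changes of -2.82 to -0.91 and means 1.92-fold to 9.72-fold lower; after median centring 11 of them were lower and 2, Mrpl1 and Mrpl3, higher. Among these 34, Mrpl4 lost its call without epidermal sheet replicate 1 (-1.06), and Mrpl54 without ETA sheet replicate 2 (-0.69) or epidermal sheet replicate 1 (-0.94) or 3 (-1.15).

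**Figure D2:**
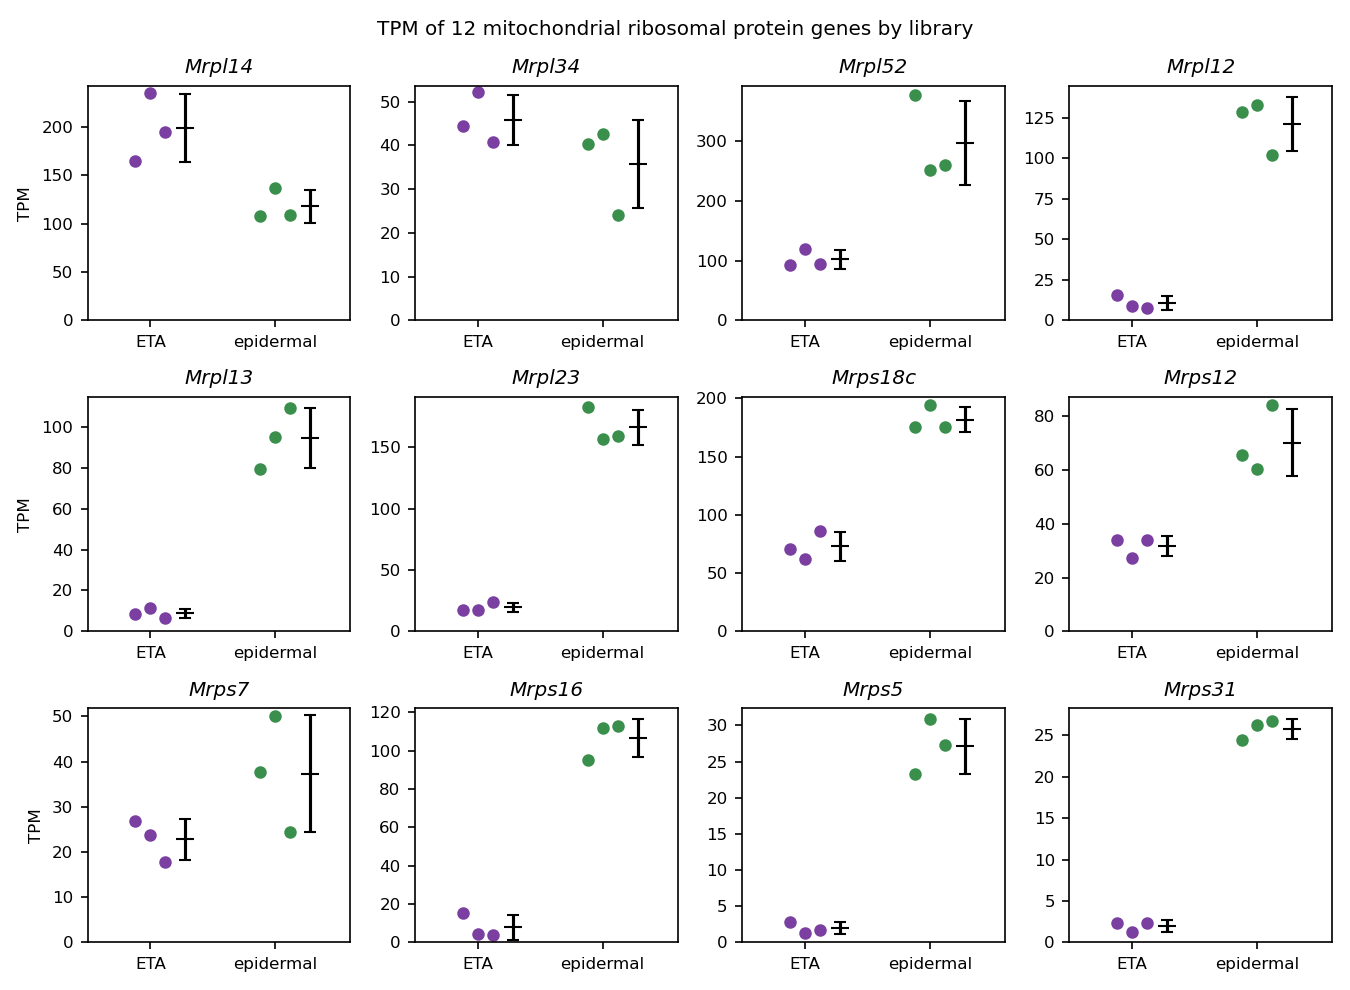
TPM of 12 mitoribosomal genes in each ETA sheet (left in each panel) and epidermal sheet (right), with the mean and SD of the 3 libraries as bars; each panel has its own scale from 0. Mrpl14 lies higher in every ETA sheet than in any epidermal sheet, Mrpl34 and Mrps7 overlap, and the other 9 genes lie lower in every ETA sheet.

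In the small subunit 27 of 29 symbols were lower and 0 higher. Mrps18c, the most abundant of them, had 71.0, 61.8 and 86.6 TPM in the ETA sheets, against 176, 195 and 175 TPM in the epidermal sheets (2.49-fold lower, log2 fold change -1.31 ± 0.19 SE, limma adjusted p = 0.000369). Mrps12, a protein of the decoding centre, had 34.0, 27.3 and 33.8 TPM in the ETA sheets, against 65.7, 60.5 and 84.3 TPM in the epidermal sheets (log2 -1.11). These 2 fell about as far as the median gene, and after median centring stood at 0.18 and 0.38, not called. Mrps26 had 35.0, 15.0 and 25.5 TPM in the ETA sheets, against 67.7, 80.7 and 103 TPM in the epidermal sheets (log2 -1.75).

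Mrps16, Mrps35, Mrps5 and Mrps31 fell furthest. Mrps16, a protein with a bacterial counterpart, had 15.2, 4.57 and 3.84 TPM in the ETA sheets, against 95.2, 112 and 113 TPM in the epidermal sheets (13.6-fold lower, log2 -3.82 ± 0.43 SE, limma adjusted p = 0.000117). Mrps35, found only in mitochondrial ribosomes, had 6.22, 1.88 and 2.06 TPM in the ETA sheets, against 45.7, 48.9 and 41.4 TPM in the epidermal sheets (log2 -3.54). Mrps5 had 2.89, 1.31 and 1.76 TPM in the ETA sheets, against 23.2, 30.8 and 27.2 TPM in the epidermal sheets (log2 -3.26). Mrps31 had 2.40, 1.21 and 2.36 TPM in the ETA sheets, against 24.4, 26.3 and 26.7 TPM in the epidermal sheets (log2 -3.19). All 4 were also called lower after median centring, at -2.33, -2.04, -1.77 and -1.70.

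Mrps7 was not called and Mrps36 lay near the threshold. Mrps7 had 26.8, 23.8 and 17.8 TPM in the ETA sheets, against 37.7, 50.1 and 24.4 TPM in the epidermal sheets (log2 fold change -0.65 ± 0.30 SE, limma adjusted p = 0.0768). Leaving out epidermal sheet replicate 3 gave a lower call (-0.92), and median centring a higher one (0.84). Mrps36, a subunit of the 2-oxoglutarate dehydrogenase complex that carries a ribosomal name, had 34.6, 32.4 and 30.1 TPM in the ETA sheets, against 48.1, 39.7 and 58.8 TPM in the epidermal sheets (log2 -0.56 ± 0.21 SE, limma adjusted p = 0.0386). Its call was lost without ETA sheet replicate 2 (-0.57) or 3 (-0.52), or epidermal sheet replicate 1 (-0.57) or 3 (-0.42), and median centring turned it into a higher call (0.93). Its 2 listed transcripts took turns: in ETA sheet replicate 2 and epidermal sheet replicate 3 all but a trace lay on one of them, and in the other 4 libraries on the other. Of the small subunit symbols not described singly, 15 were all called lower, at log2 -3.18 to -2.08 and with means 4.64-fold to 10.2-fold lower, and 6 of them were lower after median centring.

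Mrps17 and Mrps21 were listed mainly under transcripts with no symbol, which was noticed after their values were seen. Under its own name Mrps17 was listed at 5.49, 0 and 4.17 TPM in the ETA sheets and at 0 in all 3 epidermal sheets (log2 1.69, limma adjusted p = 0.0528), and it was called higher without ETA sheet replicate 2 (2.53) and after median centring (3.18). With unnamed transcripts given their symbol by accession it had 14.8, 9.75 and 13.6 TPM in the ETA sheets, against 53.9, 55.4 and 46.6 TPM in the epidermal sheets, and was called lower (-1.97). Mrps21 was listed at 0 in all 3 ETA sheets, against 12.2, 0 and 24.2 TPM in the epidermal sheets, a lower call (limma adjusted p = 0.0372) that was lost when any single library other than epidermal sheet replicate 2 was left out (log2 -2.79 to -1.86). Without epidermal sheet replicate 2 it stood at -4.19. With names filled in Mrps21 had 70.1, 17.9 and 50.5 TPM in the ETA sheets, against 238, 134 and 199 TPM in the epidermal sheets (-2.18, called lower). Mrpl21, at 0 under its own name, then had 13.7, 6.44 and 7.04 TPM in the ETA sheets, against 48.2, 30.8 and 41.8 TPM in the epidermal sheets (-2.08, called lower). Mrpl30 was listed in part under an unnamed transcript. Its values under its own name were 6.63, 14.4 and 4.99 TPM in the ETA sheets, against 35.9, 49.6 and 108 TPM in the epidermal sheets (-2.73). With names filled in they were 30.1, 14.4 and 20.7 TPM, against 128, 126 and 108 TPM (-2.47, called lower). In all, 18 unnamed transcripts belonged to 11 of the symbols. With them 75 of 78 symbols were lower and 1 was higher.

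The large subunit had 46 of 48 tested symbols lower, 1 higher and 1 not called, with a median log2 fold change of -1.85, or 0.51 below that of all genes. The small subunit had 27 of 29 lower and 2 not called, with a median of -2.24, or 0.91 below. The lower calls were 95.8% of the large and 93.1% of the small subunit symbols. After median centring 15 large subunit symbols were lower and 5 higher, and 10 small subunit symbols were lower and 3 higher (Mrps7, Mrps17 under its own name and Mrps36); trimmed-mean scaling gave 13 and 3 for the large and 12 and 2 for the small subunit. Summed large subunit transcripts had 1181, 938 and 1005 TPM in the ETA sheets, against 3272, 2986 and 3029 TPM in the epidermal sheets (2.97-fold lower). Summed small subunit transcripts had 392, 265 and 316 TPM in the ETA sheets, against 1277, 1286 and 1359 TPM in the epidermal sheets (4.03-fold lower).

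The small subunit therefore held a smaller share of mitoribosomal TPM in ETA sheets, at 24.9%, 22.0% and 23.9%, against 28.1%, 30.1% and 31.0% in the epidermal sheets. The difference of the means was -6.11 percentage points, with an SD within groups of 1.48 points, and the groups did not overlap. The difference was smaller without Mrpl14. In that comparison, which was added after its values were seen, the small subunit share was 27.8%, 27.4% and 28.1% in the ETA sheets, against 28.8%, 31.1% and 31.8% in the epidermal sheets, a difference of -2.79 points. With names filled in by accession the share was 27.8%, 23.3% and 26.8% in the ETA sheets, against 31.3%, 32.2% and 34.1% in the epidermal sheets. Among cytosolic ribosomal proteins the small subunit share was 41.2%, 41.5% and 40.8% in the ETA sheets, against 42.0%, 41.4% and 41.6% in the epidermal sheets, where the groups overlapped.

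**Figure D3:**
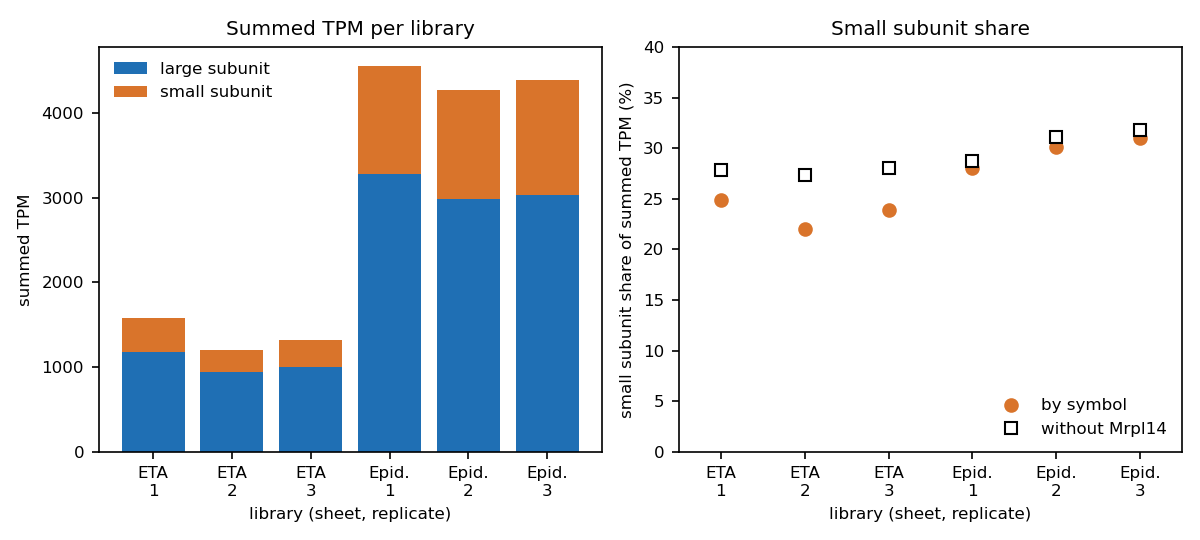
Left, summed TPM of large and small subunit transcripts in each ETA sheet (first 3 bars) and epidermal sheet (last 3 bars). Right, the small subunit share of that sum in percent, by symbol and without Mrpl14; by symbol it is 22.0% to 24.9% in ETA sheets and 28.1% to 31.0% in epidermal sheets.

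Symbols do not match structure everywhere. Mrps18a and Mrps30 sit in the large subunit of the mammalian mitochondrial ribosome, and Mrps36 is outside it. With these placed by structure, 48 of 50 large subunit genes and 24 of 26 small subunit genes were lower, with medians 0.59 and 1.10 lower than that of all genes. The small subunit share was then 21.7%, 18.6% and 20.7% in the ETA sheets, against 25.2%, 27.4% and 28.3% in the epidermal sheets. Mrps30 itself had 13.0, 6.96 and 5.67 TPM in the ETA sheets, against 44.1, 32.6 and 37.7 TPM in the epidermal sheets (log2 -2.10, called lower).

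**Figure D4:**
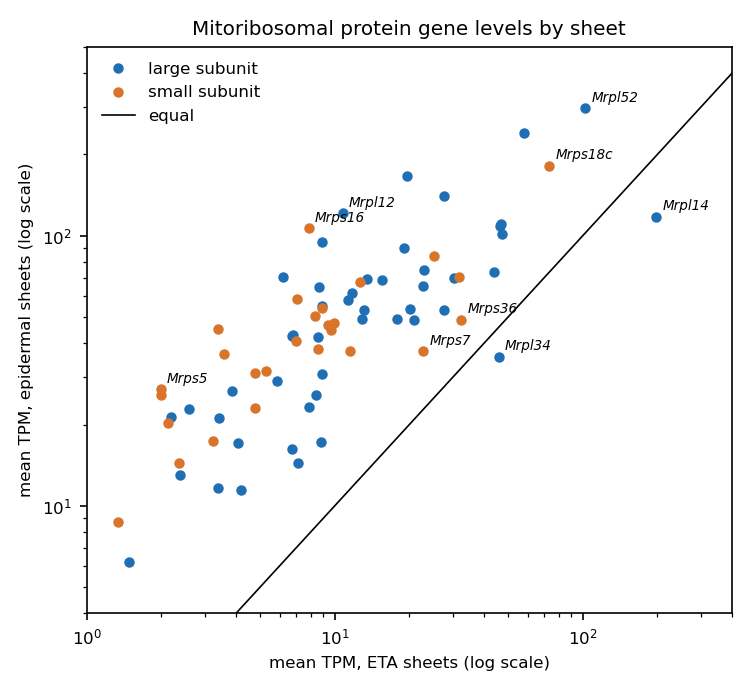
Mean TPM of each mitoribosomal gene in ETA sheets (horizontal, log scale) against epidermal sheets (vertical, log scale), coloured by subunit, with the line of equal levels; Mrps17, Mrps21 and Mrpl21, listed at 0 in all libraries of a group, are not drawn. Mrpl14 and Mrpl34 lie below the line and all other points above it.

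Proteins with and without bacterial counterparts were lower in similar shares. Of the 28 tested large subunit proteins with a bacterial counterpart 26 were lower and 1 higher (median log2 -2.06), and of the 19 found only in mitochondria all 19 were lower (median -1.83). Among small subunit symbols 16 of 18 with a bacterial counterpart were lower (median -2.30), as were 10 of 10 found only in mitochondria (median -2.37). These groups go by symbol, so Mrps18a is counted in the first and Mrps30 in the second. Mrpl55 (log2 -1.33) and Mrps36 (log2 -0.56), both called lower, were placed in neither group.

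The stalk, which recruits translation factors to the large subunit, was lower in all its parts. Its 3 proteins Mrpl10, Mrpl11 and Mrpl12 were all called lower, with a median log2 fold change of -3.13, which is the value of Mrpl10, and a summed level of 29.5, 11.1 and 19.2 TPM in the ETA sheets, against 191, 191 and 149 TPM in the epidermal sheets. Mrpl11 had 2.89, 2.39 and 1.84 TPM in the ETA sheets, against 18.2, 9.81 and 10.9 TPM in the epidermal sheets (log2 -2.01). Mrpl10 was listed at 10.7, 0 and 9.67 TPM in the ETA sheets, against 44.7, 47.8 and 36.5 TPM in the epidermal sheets (log2 -3.13), and stood at -1.97 without ETA sheet replicate 2, still called. With names filled in by accession, Mrpl10 had 20.6, 13.5 and 9.67 TPM in the ETA sheets, against 44.7, 47.8 and 41.2 TPM in the epidermal sheets (-1.61). The middle value of the 3 was then that of Mrpl11, which lies slightly above the median of all mitoribosomal genes, -2.12. After median centring Mrpl12 was called lower and the other 2 were not.

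All 8 proteins around the exit tunnel were lower, as were 94.8% of all tested mitoribosomal genes. Their median log2 fold change of -2.14 was close to the -2.12 of all mitoribosomal genes. After median centring 4 of the 8 were lower, beside 32.5% of all tested mitoribosomal genes. Mammals carry 3 homologs of the bacterial protein S18, each with a place of its own in the ribosome. All 3 were lower, and none was called after median centring. Mrps18a had 9.80, 7.40 and 12.6 TPM in the ETA sheets, against 50.8, 52.9 and 38.4 TPM in the epidermal sheets (log2 -2.16). Mrps18b had 15.6, 7.65 and 11.4 TPM in the ETA sheets, against 53.5, 27.5 and 31.2 TPM in the epidermal sheets (log2 -1.60). With Mrps18c these gave the homologs a span of -2.16 to -1.31.

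The list of mitoribosomal proteins with older or other names (Mrpl57 and Mrpl58 among them) had 6 of 7 genes lower. Dap3, a GTP-binding protein of the small subunit, was the exception. It had 30.1, 27.6 and 37.8 TPM in the ETA sheets, against 26.3, 27.1 and 22.5 TPM in the epidermal sheets (log2 0.31 ± 0.21 SE, limma adjusted p = 0.211). Median centring gave a higher call (1.81). Aurkaip1, another small subunit protein, had 32.3, 32.2 and 34.9 TPM in the ETA sheets, against 74.5, 65.2 and 77.3 TPM in the epidermal sheets (log2 -1.10). Ptcd3, a small subunit protein that binds RNA, had 2.79, 0.667 and 2.61 TPM in the ETA sheets, against 21.0, 20.1 and 22.6 TPM in the epidermal sheets (log2 -2.97, also lower after median centring at -1.47).

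The machinery that builds and serves the ribosome was mostly lower as well, beside the 63.6% of all tested genes that were. After median centring, where 18.8% of all genes were lower and 29.1% higher, the counts of these lists were smaller. Of 22 tested assembly factors 19 were lower and 0 higher (4 and 2 after centring), and their median lay 0.60 log2 units lower than that of all genes. Rbfa, which matures the small subunit, had 21.9, 11.4 and 13.7 TPM in the ETA sheets, against 66.9, 56.6 and 61.0 TPM in the epidermal sheets (log2 -1.95). Rpusd4, a pseudouridine synthase that modifies the large ribosomal RNA, was at 0.666, 0 and 0.246 TPM in the ETA sheets, against 13.0, 7.33 and 15.7 TPM in the epidermal sheets (log2 -3.29).

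Of 15 mitochondrial translation factors 14 were lower and 0 higher (2 and 1 after median centring, median 0.73 below all genes). Slirp, a partner of the RNA-binding protein Lrpprc, had 26.6, 29.9 and 21.3 TPM in the ETA sheets, against 135, 172 and 194 TPM in the epidermal sheets (log2 -2.64). Mtif2, the initiation factor, had 3.86, 0.782 and 3.65 TPM in the ETA sheets, against 17.5, 26.3 and 27.2 TPM in the epidermal sheets (log2 -2.82). The factor that was not called was Mrrf, which recycles ribosomes, at 12.1, 20.7 and 12.7 TPM in the ETA sheets, against 8.66, 9.49 and 10.5 TPM in the epidermal sheets (log2 0.58, limma adjusted p = 0.0846).

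Of 19 tested mitochondrial tRNA synthetases 16 were lower (2 lower and 0 higher after median centring, median 0.43 below all genes), among them Iars2 (log2 -2.24), which charges isoleucine tRNA, and Rars2 (log2 -3.69), which charges arginine tRNA. Of 15 genes that copy and transcribe mitochondrial DNA or mature its RNA 11 were lower (4 lower and 4 higher after median centring, 5 and 2 after trimmed-mean scaling, median 0.33 below), among them Hsd17b10 (log2 -2.80), a subunit of the enzyme that cuts tRNA ends, and Ssbp1 (log2 -2.93), the single-strand binding protein. All 24 import genes were lower (7 lower and 0 higher after median centring, median 0.53 below), among them the channel Timm23 (log2 -1.34) and the chaperone Timm9 (log2 -3.54). As deposited, no gene of these 3 lists was called higher.

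Of 17 tricarboxylic acid cycle genes 13 were lower and 0 higher (8 and 3 after median centring, median 0.98 below all genes). Cs, citrate synthase, had 122, 83.0 and 101 TPM in the ETA sheets, against 176, 211 and 177 TPM in the epidermal sheets (log2 -0.89, lower), and median centring gave a higher call (0.61). Sdhd, a membrane subunit of succinate dehydrogenase, had 5.92, 4.47 and 3.63 TPM in the ETA sheets, against 80.1, 80.7 and 87.1 TPM in the epidermal sheets (log2 -3.90). Of 7 tested regulators of mitochondrial biogenesis 6 were lower, with a median 0.20 below that of all genes. After median centring 1 was lower and 2 were higher, and after trimmed-mean scaling the median lay 0.014 below. Myc had 43.1, 32.1 and 33.6 TPM in the ETA sheets, against 193, 177 and 198 TPM in the epidermal sheets (log2 -2.36). Pprc1, a coactivator related to PGC-1, was at or near 0 in ETA sheets 1 and 3 and at 2.85 TPM in ETA sheet 2, against 7.42, 7.61 and 6.77 TPM in the epidermal sheets (log2 -2.40).

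**Figure D5:**
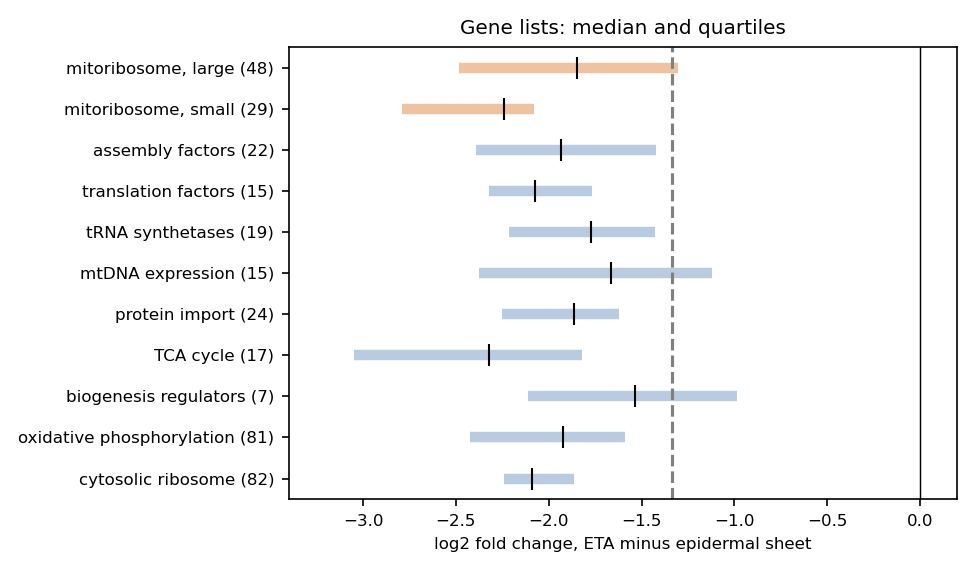
Median (tick) and quartiles (bar) of the log2 fold change, ETA minus epidermal sheets, for both mitoribosomal subunits and 9 other lists, with the number of tested genes in brackets; the dashed line marks the all-gene median, -1.34. All 11 medians lie left of the dashed line, between -2.32 for the tricarboxylic acid cycle and -1.54 for biogenesis regulators.

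Mitoribosomal transcripts were also set beside those of the cytosolic ribosome and of the respiratory chain that their products serve. All 82 tested cytosolic ribosomal protein genes were lower (median log2 -2.09, 55 lower and 1 higher after median centring), as were 76 of 81 nuclear genes of oxidative phosphorylation, with 2 higher (median -1.92, 30 lower and 7 higher after median centring). For every 1000 TPM of cytosolic ribosomal protein transcripts there were 19.0, 22.8 and 24.1 TPM of mitoribosomal transcripts in the ETA sheets, against 16.7, 18.01 and 17.8 TPM in the epidermal sheets. For every 1000 TPM of oxidative phosphorylation transcripts there were 143, 154 and 159 TPM in the ETA sheets, against 180, 181 and 183 TPM in the epidermal sheets. Neither pair of ranges overlapped. Mrpl14 alone held 10.5%, 19.6% and 14.8% of mitoribosomal TPM in the ETA sheets, against 2.36%, 3.20% and 2.48% in the epidermal sheets. This larger share in ETA sheets adds to the gap beside cytosolic transcripts and narrows the gap beside oxidative phosphorylation transcripts. The ratios were not recomputed without Mrpl14, so neither gap can be read as a trait of the whole set. Median log2 fold changes lay close together, at -2.12 for mitoribosomal and -2.09 for cytosolic ribosomal protein genes.

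Transcripts of other cell types also differed between the sheets. All 7 granular markers were higher, with the sums given above. The 6 basal markers summed to 133 to 215 TPM in the ETA sheets, against 14616 to 17022 TPM in the epidermal sheets, and all 6 were lower, none at 0. Of 6 Langerhans cell markers 5 were lower and Epcam was higher. All 6, with Epcam included, summed to 282 to 471 TPM in the ETA sheets, against 1333 to 1574 TPM in the epidermal sheets. Their median log2 fold change was -4.50. All 5 T cell markers were lower (5.57 to 11.8 TPM in the ETA sheets, against 140 to 151 TPM in the epidermal sheets), with Cd3e, Cd3g and Cd3d at 0 in ETA sheet replicate 2. Of 5 melanocyte markers 4 were tested and all 4 were lower (0.815 to 1.66 TPM in the ETA sheets, against 37.2 to 40.6 TPM in the epidermal sheets), with Mlana at 0 in all ETA sheets and Dct, Tyr and Tyrp1 at 0 in ETA sheet replicate 2. Of 6 sebaceous and follicle markers 5 were lower (191 to 394 TPM in the ETA sheets, against 2362 to 3297 TPM in the epidermal sheets). All 5 fibroblast markers were higher (55.8 to 66.6 TPM in the ETA sheets, against 7.04 to 10.8 TPM in the epidermal sheets), with Lum at 0 in all epidermal sheets and Col3a1 at 0 in 2 of them. The part of these cell types in the mitoribosomal result was not tested.

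Among themselves the mitoribosomal genes kept much of their order of abundance. Over the 77 tested genes the level in ETA sheets and that in epidermal sheets had a Spearman correlation of 0.80, against 0.75 over all 11683 tested genes. The fold change was hardly related to the mean level (0.095), the transcript length (-0.131) or the GC content of the transcript (0.073). These are correlations across genes of the same libraries, which are not independent. Mitoribosomal transcripts were short, with a median of 1226 bases against 2789 bases for all tested genes, and the 4513 tested genes of up to 2294 bases had a median log2 fold change of -1.48, against -1.26 for longer ones. In the GENCODE annotation 26 of the 78 genes share exon bases with another gene. On the opposite strand this held for 22, among them Mrpl12, Mrpl13, Mrpl43, Mrpl47, Mrpl48 and Mrps7. On the same strand it held for 5, Mrpl33, Mrpl51, Mrpl53, Mrps6 and Mrps18c. The library kit keeps strand, but whether the counting used it is not given in the sources used here, so values of pairs on opposite strands could be mixed. Values of pairs on the same strand could be mixed in either case.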

How the data were processed

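Total RNA of mouse ear epidermis was sequenced from 3 ETA and 3 epidermal sheets with a directional kit as paired reads of 25 bp, per the labels' protocols. The submitters' processing notes name Salmon, Bowtie2 and mm9, without versions. The mitoribosomal transcripts carry RefSeq names (NM or NR), but which annotation release was used is not given in the sources used here. As the authors deposited it, the table lists 37903 transcripts in TPM, 7951 of them without a symbol. TPM keeps no depth, so no counting interval could be given. Columns were given to samples by library number, and groups were taken from the titles.

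Each symbol was given the sum of its transcripts' TPM (95 transcripts for 78 symbols); 19931 of 20522 symbols matched the reference gene table. The fit, by limma 3.58.1 (R 4.3.3), took the 11683 symbols averaging 1 TPM or more, as log2(TPM + 1), ETA minus epidermal sheets, with a variance trend and Benjamini-Hochberg adjustment over all of them. Low genes are understated on this scale; a fold is the ratio of the mean TPM values. The fit was tested on simulated data in which a small part of the genes was changed, in random directions. Most genes were lower in the real data, so that test does not cover the choice of scaling. Trimmed-mean scaling, a plain version written for this comparison, left out 0.3 of the log ratios and 0.05 of the mean levels at each end. Python 3.11.15, numpy 2.4.6, pandas 2.3.3 and matplotlib 3.10.9 did the rest. Promoters, as RefSeq gives them, are of GRCm38.p6, another build than mm9.

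Single genes were named by rule: in each subunit the 4 with the highest mean TPM and the 4 called with the largest fall among those without overlap whose higher group averaged 10 TPM or more; all called higher or not called; up to 6 by fold called higher after median centring; the S18 homologs, the stalk, and Mrpl45, Mrpl47, Mrps12, Mrps30 and Mrps36; and from each other list the most abundant gene and the gene with the largest call. Mrps21, Mrpl21, Mrpl30, Mrpl1, Mrpl3, Mrpl4, Mrpl54, Dap3 and Mrrf were named after their values were seen. The genes, lists and tests were all chosen with earlier results of these data known. The alternatives were 2 scalings, other pseudocounts and filters, the replicate number as a block, weighted libraries, an untrended variance, only the largest transcript, header names as groups, a test against a 2-fold change and each library left out. Names filled in by accession, both ETA sheets 1 and 2 left out, and Mrpl14 left out of the share were added after seeing the data.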

Additional observations from a re-analysis of the deposited data

How the results depend on the processing

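Scaling decided how many mitoribosomal genes were called. The lower calls, 46 of the large and 27 of the small subunit, became 15 and 10 after median centring and 13 and 12 after trimmed-mean scaling. They became 0 and 0 with the header names as groups, and a test against a 2-fold change kept 27 of the large and 21 of the small subunit. The higher call became 8 after median centring, 5 after trimmed-mean scaling, 2 with a pseudocount of 5, the replicate block, library weights or ETA sheets 1 and 2 left out, and 0 with header names or the 2-fold test; the second higher call with the pseudocount, block, weights or left-out sheets was Mrps17 under its own name. The genes called over the whole table, 8613, became 5607, 5748, 0 and 4300 under median centring, trimmed-mean scaling, header names and the 2-fold test. The mitoribosomal median against all genes, -0.78, was -0.60 after trimmed-mean scaling, -0.66 with a pseudocount of 0.1, -1.40 with no filter, -0.72 with a filter of 5 TPM, -0.28 with header names and -0.67 without ETA sheets 1 and 2. The small subunit share difference, -6.11 points, was -2.06 with header names and -2.79 without Mrpl14. Leaving out each library gave 41 to 45 and 25 to 27 lower calls, 1 to 2 higher, 7741 to 8603 genes called, a median of -0.82 to -0.66 and a share difference of -6.93 to -5.31. Signs turned under both median centring and trimmed-mean scaling for 17 of the genes that were negative as deposited, among them, of those named by rule, Mrpl43 (0.78 and 0.77), Mrpl45 (0.66 and 0.56), Mrps7 (0.84 and 0.81), Mrps12 (0.38 and 0.37), Mrps18c (0.18 and 0.19) and Mrps36 (0.93 and 0.91), by construction since every gene was shifted upward, and for Mrps17 with names filled in (-1.97). The cause of the other changes was not tested.

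Deviations from the group mean were hardly correlated between same-numbered libraries (0.019, -0.030 and -0.045) or between differently numbered ones (-0.022 to 0.049). The labels do not say whether a replicate number joins an ETA with an epidermal sheet, and these values do not settle it. The replicate block gave 72 lower and 2 higher mitoribosomal genes. The library weights put 5.37 on ETA sheet replicate 3, against 0.370 and 0.341 on replicates 1 and 2. Depth is unknown, so a value of 0 in 1 library cannot be read as absence.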
